A study of Mus musculus with 6 samples.

Results

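The genes described here encode 5 semaphorin ligands, *Sema6a*, *Sema7a*, *Sema3c*, *Sema3f* and *Sema6d*. Their members were taken from the authors' list of differentially methylated regions (DMRs) between infant and young adult lung endothelial cells (EC). A DMR belonged to a gene when its midpoint lay in the RefSeq gene body on mm10 or at most 10 kb from it. By this rule 85 of the 18,333 listed DMRs were found, 45 at *Sema6a*, 16 at *Sema7a*, 6 at *Sema3c*, 8 at *Sema3f* and 10 at *Sema6d*. The study compared lung EC of C57BL/6N mice, 3 samples from infant mice of 8 to 10 days and 3 from young adult mice of 8 to 12 weeks, by T-WGBS, whole-genome bisulfite sequencing of libraries made by tagmentation. By the study's methods the mice were female and bought as C57BL/6N, with no treatment named, and the cells were sorted as CD31+ and CD34+ and without the leukocyte, erythroid and lymphatic surface markers PTPRC, LY76, LYVE1 and PDPN. The methylation level of a DMR is the share of cytosine calls at its CpGs that resisted bisulfite, and the list gives 1 mean of it for each age group, averaged by the authors over the samples. Values of single samples are not analysed here. Thus no difference could be set against the spread between samples, no p was computed, and the read depth behind a DMR is unknown. Each level is an average over all sorted cells, so a change within cells and a change in the mix of EC subtypes cannot be told apart, and a list of DMRs offers no marker level with which the cell type could be checked.

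Semaphorins are guidance proteins that were first known from growing axons and that also act on blood vessels. They signal through plexins. The secreted class 3 proteins, to which SEMA3C and SEMA3F belong, bind neuropilins as co-receptors, whereas SEMA6A and SEMA6D are transmembrane proteins that bind A-type plexins. SEMA7A is tethered to the membrane by a lipid anchor and can bind integrins and plexin C1. In mammals most CpGs are methylated, start sites rich in CpGs usually are not, and low methylation inside an intron often marks a regulatory element in use.

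In 4 of the 5 genes the largest loss sat in a stretch of 30 to 76 bp with 3 or 4 CpGs. The sequences below show the largest loss of methylation DMR of 4 genes, the largest gain, and the DMR next to an alternative start of *Sema6d*. All are plus strand mm10 reference, the capitals mark the CpGs that belong to the DMR, and CpGs outside the DMR are left in lower case. The window for *Sema7a* is chr9:57953830-57954029 in intron 2, that for *Sema3c* is chr5:17676789-17676988 in intron 9, and that for *Sema3f* is chr9:107700328-107700527 in intron 2. For *Sema6d*, the windows are chr2:124297004-124297203 and chr2:124162182-124162459, both in intron 2, and chr2:124601385-124601584, the 200 bases just before a predicted transcript start.
Sema7a largest loss: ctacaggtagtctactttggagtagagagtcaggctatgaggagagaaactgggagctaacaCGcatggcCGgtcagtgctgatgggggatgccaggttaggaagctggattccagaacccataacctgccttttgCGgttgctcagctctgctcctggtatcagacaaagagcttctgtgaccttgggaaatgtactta
Sema3c largest loss: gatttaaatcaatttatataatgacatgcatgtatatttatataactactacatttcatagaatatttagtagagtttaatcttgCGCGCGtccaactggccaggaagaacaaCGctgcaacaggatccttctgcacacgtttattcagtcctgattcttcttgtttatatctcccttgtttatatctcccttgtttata
Sema3f largest loss: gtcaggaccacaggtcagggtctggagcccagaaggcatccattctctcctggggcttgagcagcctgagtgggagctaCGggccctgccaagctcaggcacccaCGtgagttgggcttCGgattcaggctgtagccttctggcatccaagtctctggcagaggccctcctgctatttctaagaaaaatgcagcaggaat
Sema6d largest loss: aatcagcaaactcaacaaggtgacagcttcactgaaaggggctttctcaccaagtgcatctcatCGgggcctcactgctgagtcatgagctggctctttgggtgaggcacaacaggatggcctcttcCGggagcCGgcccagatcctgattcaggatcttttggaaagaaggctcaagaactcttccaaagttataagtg
Sema6d largest gain: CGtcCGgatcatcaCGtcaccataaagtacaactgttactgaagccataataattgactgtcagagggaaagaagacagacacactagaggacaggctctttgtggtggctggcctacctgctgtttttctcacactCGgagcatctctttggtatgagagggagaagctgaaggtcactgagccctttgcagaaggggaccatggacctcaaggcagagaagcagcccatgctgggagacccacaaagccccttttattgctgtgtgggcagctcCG
Sema6d predicted start: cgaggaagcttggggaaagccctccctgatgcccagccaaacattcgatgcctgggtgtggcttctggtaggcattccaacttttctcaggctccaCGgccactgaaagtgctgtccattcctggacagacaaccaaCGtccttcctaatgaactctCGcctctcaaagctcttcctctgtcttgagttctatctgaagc
The DMR of *Sema7a* had a level of 83.6% in infant EC and 42.5% in young adult EC, that of *Sema3c* fell from 67.4% to 9.06% and that of *Sema3f* from 74.7% to 24.5%. At *Sema6d*, the largest loss went from 53.5% to 4.88%, the gain from 25.7% to 57.5%, and the DMR at the predicted start from 48.0% to 17.3%. Only the *Sema3c* stretch of these 6 has CpGs in direct succession, and its DMR spans 30 bp. Regions of *Sema6a* are given by position.

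Loss of methylation prevailed in all 5 genes. Of the 85 DMRs, 81 had less methylation in young adult than in infant EC (95.3%). Of all listed DMRs, 45.9% lost and 54.1% gained methylation. *Sema6a* and *Sema3c* had no gain DMR, *Sema7a* and *Sema3f* had 1 each, and *Sema6d* had 2. Most of the DMRs are those of *Sema6a*, and without this gene 36 of 40 DMRs (90.0%) lost methylation. Each of the genes held more than 5 loss DMRs in its body or within 10 kb, as did 1.40% of the 26,089 annotated genes. The genes were picked with these counts known, so the shares describe them and test nothing. DMRs of the same gene lie close together and are not independent.

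**Figure D1:**
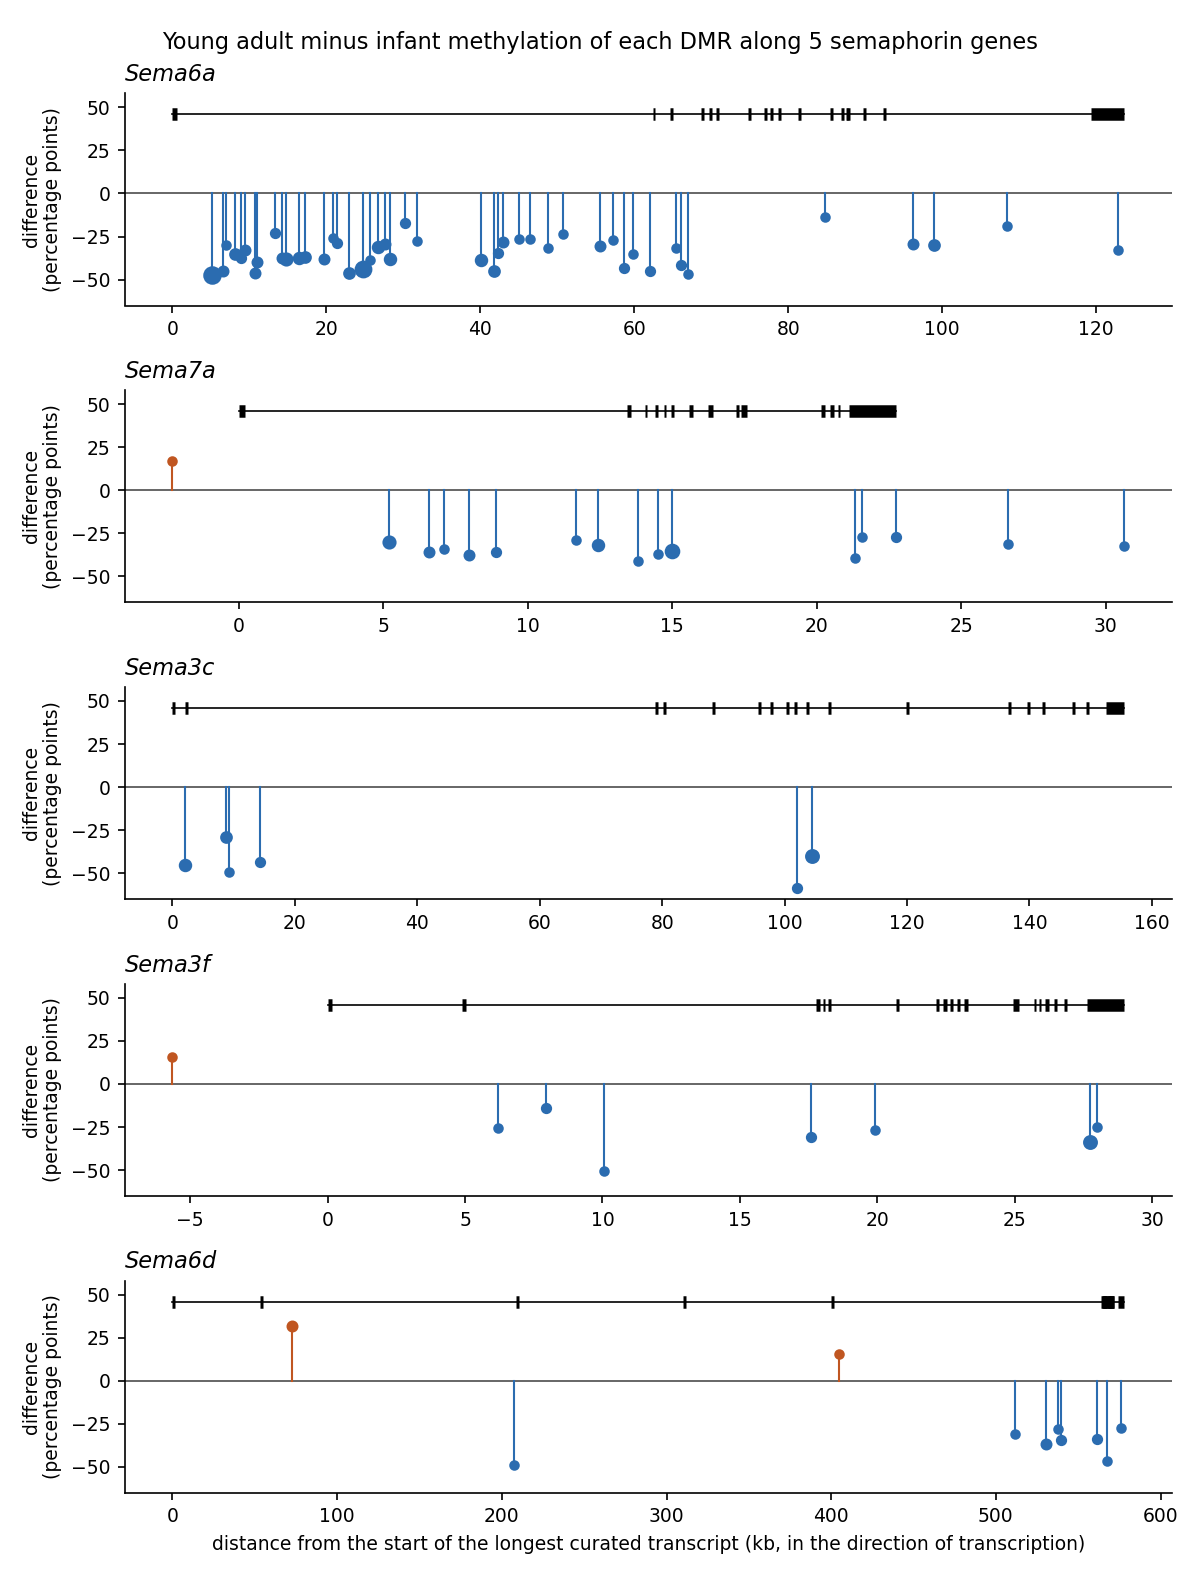
Young adult minus infant group mean of each DMR (percentage points) against its distance from the start of the longest curated transcript (kb), with the exons of that transcript as black boxes on top, loss in blue, gain in orange and larger points for more CpGs. The 45 DMRs of *Sema6a* all point down and crowd into intron 1, while the DMRs of *Sema6d* stand far apart with 2 of 10 pointing up.

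*Sema6a* carried the largest number of DMRs. The gene covers 123.6 kb on the minus strand of chromosome 18 (47245254 to 47368870, NM_001311097.1, 18 exons). All 45 DMRs lay in the gene body and all lost methylation, and 8 of the 26,089 genes, *Sema6a* included, had as many loss DMRs. Infant levels ranged from 18.5% to 94.2% with a median of 72.7%, and young adult levels ranged from 4.60% to 76.7% with a median of 35.6%. The differences went from -47.0 to -13.9 percentage points, with a median of -34.7. In the median DMR the young adult level was 50.2% of the infant level. High methylation remained in places, since 8 DMRs were still above 50% in young adult EC, and 9 were below 20%.

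Intron 1 of *Sema6a* held 37 of the 45 DMRs. This intron is 61.7 kb long and contains 861 CpGs in the reference, of which 190 (22.1%) lay in a loss DMR. Intron 3, with 3 DMRs in 3.96 kb, had a similar share of 23.3% of its CpGs. By contrast, intron 17 is 27.0 kb long and had 3 DMRs with 4.47% of its CpGs. The others were a DMR in intron 11 and a DMR in the 3′ UTR of exon 18. Whether CpGs between the DMRs did not change or were not covered well enough cannot be read from a list of DMRs.

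Along the gene, the DMRs of *Sema6a* began 5.14 kb downstream of the start. The widest gap was 17.7 kb and the median gap 1.14 kb, compared with 24.4 kb between neighbouring DMRs over the whole list. Joined at gaps of at most 10 kb, 40 DMRs formed a single run of 62.2 kb that spanned most of intron 1 and reached intron 3. In steps of 10 kb from the start, the number of DMRs was 6, 8, 8, 2, 7, 5 and 4 over the first 70 kb, and the rest of the gene held 5. The step from 30 to 40 kb stood out with few DMRs and with the smallest median difference of these 7 steps, -22.3 percentage points. It contained 109 CpGs, not far from the 111 of the next step, which had 7 DMRs.

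The DMR of *Sema6a* with the largest difference was also the one nearest to the start. It covers 578 bp of intron 1 (chromosome 18, 47363446 to 47364023), contains 14 CpGs and fell from 90.6% to 43.6%. Almost as large was the loss in a DMR of 3 CpGs in intron 3 (47301841 to 47301991), from 55.2% to 8.64%. The widest DMR, 854 bp with 13 CpGs (47343672 to 47344525), fell from 75.0% to 31.2%. A pair of DMRs only 4 bp apart (47357816 to 47357984 and 47357989 to 47358217) fell from 74.8% to 35.1% and from 65.3% to 19.4%. This pair lay 452 and 655 bp upstream of a predicted start (XM_006525727.4), and the study placed a MassARRAY amplicon over both. The smallest loss was found in intron 11 (47283967 to 47284104), a DMR that was already low in infant EC, with 18.5%, and reached 4.60%.

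*Sema7a* had the densest loss per length of the 5 genes. The gene spans 22.8 kb on the plus strand of chromosome 9 (57940112 to 57962865, NM_011352.3, 14 exons). Its body held 13 loss DMRs, which is 5.71 per 10 kb compared with 3.64 in *Sema6a*, 2.42 in *Sema3f*, 0.39 in *Sema3c* and 0.14 in *Sema6d*. They contained 61 of the 411 CpGs of the gene body (14.8%), against 13.1% in *Sema6a*. Over all gene bodies 0.29% of CpGs lay in a loss DMR, and the median was 1.07% among the 2,215 genes with at least 1 such DMR.

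The 15 loss DMRs of *Sema7a* covered a narrower range of levels than the 45 of *Sema6a*, but a range tends to narrow with fewer DMRs. The median levels of both genes were close. Infant levels lay between 40.1% and 88.1% (median 70.2%) and young adult levels between 12.8% and 56.7% (median 35.9%). All 15 differences fell between -41.1 and -27.3 percentage points, with a median of -34.3. The young adult level was 50.8% of the infant level in the median DMR. Intron 1 contained 7 of the DMRs, and introns 2 and 4 contained 1 each. A DMR of 10 CpGs (57954996 to 57955200) included the whole of exon 6, which is coding, and fell from 72.9% to 37.5%. The last exon held 3 DMRs, 1 of them coding and 2 in the 3′ UTR, where infant methylation was lower, with 40.1% and 45.8%, and young adult EC had 12.8% and 18.5%. Past the end of the gene, 2 more loss DMRs followed at 3866 and 7876 bp, both in intergenic sequence with repeats over 51.1% and 100% of their length.

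The only gain DMR of *Sema7a* within 10 kb lay upstream. This DMR, 2290 bp before the start (57937748 to 57937896, 3 CpGs), gained methylation from 63.3% to 80.1%. The 15 loss DMRs began 5215 bp behind the start and formed a run of 25.6 kb without a gain DMR in between. The 10 kb limit left out a loss DMR further upstream, in an intron of the neighbouring gene and 12.3 kb from *Sema7a*, that went from 69.4% to 30.8%. At the other 4 genes, the first DMR beyond the limit was 23.0 kb (*Sema3c*), 40.3 kb (*Sema6a*), 53.6 kb (*Sema3f*) and 86.0 kb (*Sema6d*) away.

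*Sema3c* had few DMRs, but among them the largest loss of all 85. The gene covers 155.5 kb on the plus strand of chromosome 5 (17574816 to 17730268, NM_013657.5, 18 exons), and 33 of its 1,060 CpGs (3.11%) lay in its 6 DMRs. From 5′ to 3′, the infant levels were 53.9%, 80.9%, 74.2%, 80.7%, 67.4% and 49.5%. The young adult levels in the same order were 8.78%, 52.2%, 24.9%, 37.5%, 9.06% and 9.46%. Thus 3 of the 6 DMRs ended below 10%, compared with 2 of 45 in *Sema6a* and none of 15 in *Sema7a*. The same held for 3 of 8 loss DMRs in *Sema6d* and 1 of 7 in *Sema3f*. The share below 10% was not computed over all loss DMRs. Below 20% were 50% of the *Sema3c* DMRs and 38.1% of all loss DMRs. In *Sema3c* the median difference was -44.2 percentage points and the median young adult level was 26.3% of the infant level.

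The DMRs of *Sema3c* formed a group of 4 near the start and a group of 2 far inside the gene. The first DMR (17576562 to 17577146, 585 bp, 7 CpGs) was centred 2.04 kb downstream of the start and included the whole of exon 2, where its midpoint falls in the 5′ UTR. It was also the DMR under the study's MassARRAY amplicon for this gene. Another 3 lay in intron 2 at 8.82, 9.28 and 14.3 kb. After a stretch of 87.7 kb without a DMR, introns 9 and 10 contained 1 each at 102.1 and 104.6 kb (17676874 to 17676903 and 17679144 to 17679593). The one in intron 9, printed above, changed by -58.4 percentage points, and 83.3% of its 30 bp is repeat sequence.

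*Sema3f*, the other secreted ligand of the group, started from lower infant levels. It spans 29.0 kb on the minus strand of chromosome 9 (107681499 to 107710475, NM_011349.3, 18 exons), and its 7 loss DMRs contained 4.52% of the CpGs of the gene. In the direction of transcription, infant levels were 40.6%, 15.9%, 74.7%, 57.1%, 37.9%, 60.2% and 45.5%. The young adult levels were 15.1%, 2.04%, 24.5%, 26.4%, 11.0%, 26.7% and 20.4%. The highest of these was 26.7%, whereas *Sema6a* and *Sema7a* had 8 and 2 loss DMRs above 50%. The median difference was -26.9 percentage points, the smallest of the 5 genes, and the largest was -50.2 in intron 2 (107700407 to 107700448). Intron 2 contained 4 of the loss DMRs, intron 5 contained 1, and the coding part of the last exon contained 2.

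The DMR of *Sema3f* nearest to a curated start (107704177 to 107704391) was 1307 bp downstream of the shorter transcript NM_001311151. Upstream of the gene, a DMR of 3 CpGs at 5.64 kb (107716020 to 107716214) gained methylation from 82.0% to 97.8%. As at *Sema7a*, and within the 10 kb limit only, the gain lay before the start and the losses behind it. The neighbour of *Sema3f* on its 3′ side is *Gnat1*, which encodes a subunit of the G protein of rod photoreceptors. The authors' list names *Gnat1* as the nearest promoter for 4 of the 7 loss DMRs, although all of them lie inside *Sema3f*.

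*Sema6d* is the longest of the genes and had the most scattered DMRs. It covers 577.8 kb on the plus strand of chromosome 2 (124089969 to 124667789, NM_001290997.1, 21 exons), with further curated starts at 124610296 and 124653581. Only 28 of its 4,033 CpGs (0.69%) were in loss DMRs, which is below the median of 1.07% for genes with a loss DMR. The 8 loss DMRs had infant levels from 35.6% to 68.4% (median 50.8%) and young adult levels from 1.83% to 33.1% (median 13.7%). In 6 of them the young adult level was below 20%, and 3 were below 10%. The median difference was -34.1 percentage points and the median young adult level was 29.3% of the infant level.

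The gains of *Sema6d* were far apart, in introns 2 and 5. The largest gain was 72.4 kb from the start, and the largest loss followed at 207.1 kb. For each of these DMRs, the authors' list names a gene other than *Sema6d* as the nearest promoter. The second gain, at 404.8 kb (124494783 to 124494854), rose from 74.7% to 90.3%. The 7 DMRs from 511.5 kb onward all lost methylation and spanned 64.6 kb that include both internal starts. The first of these ends just before a predicted start (XM_006499113.4), 73 bp upstream of it at its midpoint. Another (124651303 to 124651419) was 2.22 kb upstream of the start at 124653581 and fell from 35.6% to 1.83%, the lowest young adult level of all 85 DMRs. DMRs followed in intron 13 (124657436 to 124657657, from 68.4% to 22.1%) and in the 3′ UTR (124666094 to 124666109, from 35.8% to 8.60%).

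**Figure D2:**
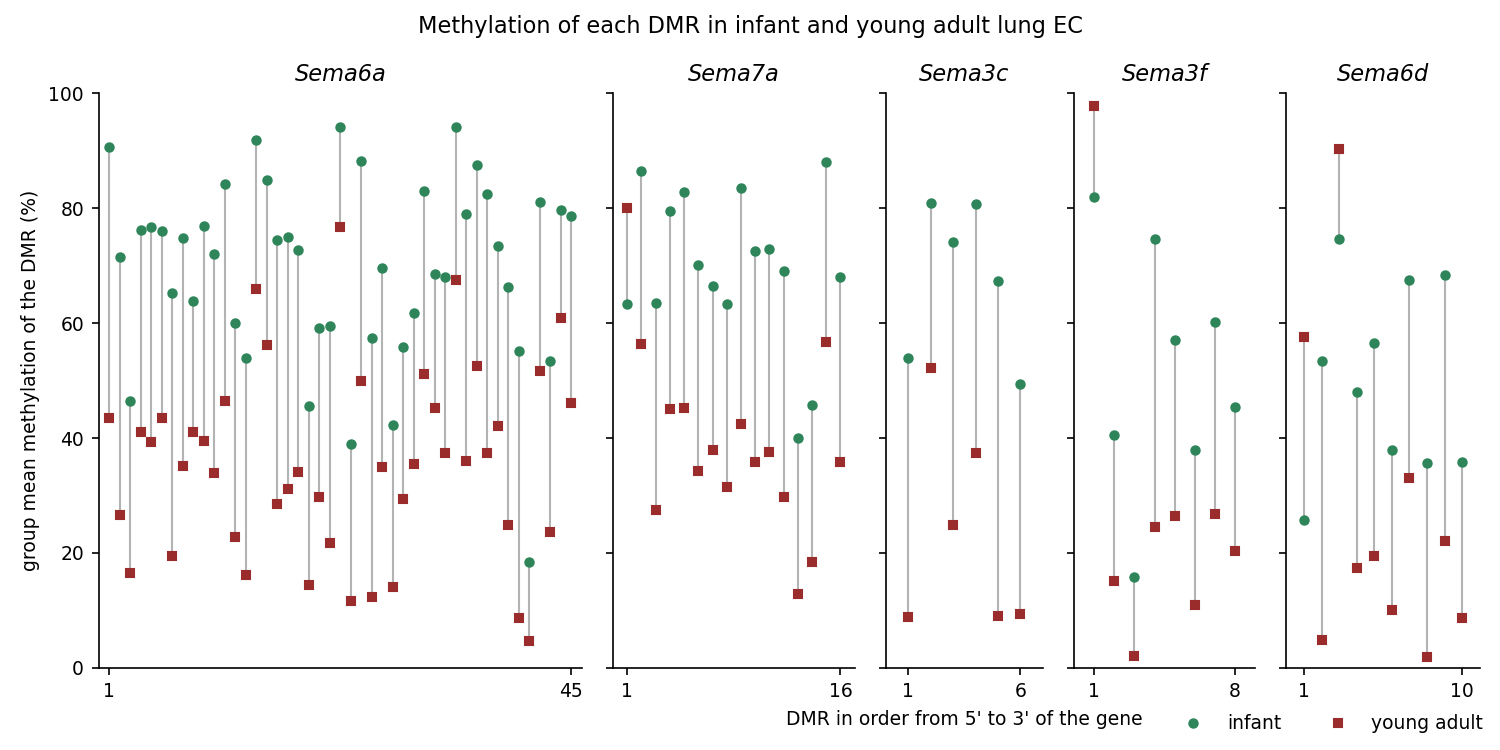
Group mean methylation (%) of each DMR in infant (green circles) and young adult (red squares) lung EC, with the DMRs of a gene in order from 5′ to 3′ and a grey line joining the 2 means of a DMR. The single gains of *Sema7a* and *Sema3f* come first in their genes, and several DMRs of *Sema3c* and *Sema6d* end below 10%.

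The levels of the loss DMRs can be set beside those of all 8,422 loss DMRs of the list. Over the 81 semaphorin DMRs, the infant median was 68.4% and the young adult median 31.6%, compared with 61.5% and 25.4% over the whole list. The median difference was -34.3 percentage points against -32.5. A young adult level below 20% was found in 28.4% of the semaphorin loss DMRs and in 38.1% of all loss DMRs. Without *Sema6a* the share was 38.9% and the young adult median 25.6%, close to the values of all loss DMRs. The range among the 5 genes, from 13.3% of the DMRs in *Sema7a* and 20% in *Sema6a* to 75% in *Sema6d*, was wider than this gap. Infant and young adult levels rose together across the 81 DMRs (Pearson r = 0.87), as across all loss DMRs (r = 0.87, n = 8422). These points share the same libraries and were chosen for their difference, so r is given as a description.

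**Figure D3:**
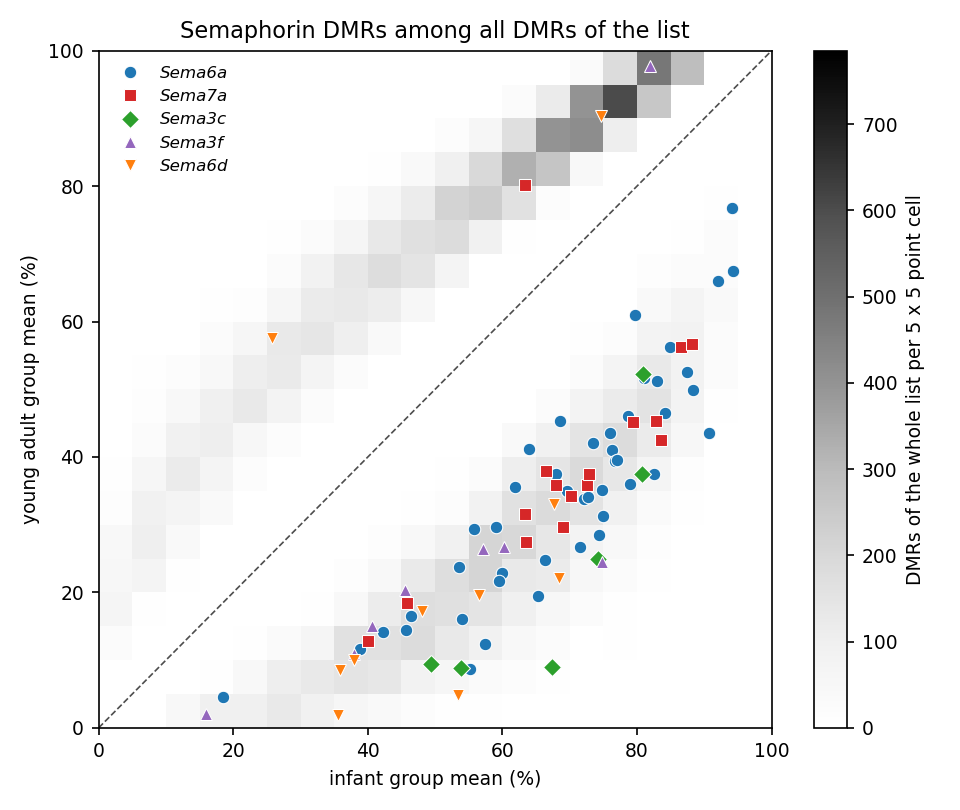
Young adult against infant group mean (%) of the 85 semaphorin DMRs, coloured by gene, over the number of all listed DMRs in cells of 5 by 5 percentage points in grey, with the dashed line at equal levels. The 81 loss DMRs lie below the line within the band of all loss DMRs, *Sema3f* and *Sema6d* towards its lower left, and 4 gain DMRs lie above the line.

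None of the 85 DMRs was at a promoter, here 1 kb upstream to 100 bp downstream of a curated start. Among all DMRs 2.11% were, so a count of 0 is near the background. With promoters of 2 kb to either side the share was 1.18%. Predicted starts lay closer, with DMRs of *Sema6d*, *Sema3f* and *Sema6a* at 73, 236, 452 and 655 bp upstream of one. The closest to a curated start of its own gene was 1307 bp away. The 1 kb to either side of the main start held 99 CpGs in *Sema6a*, 138 in *Sema7a*, 82 in *Sema3c*, 120 in *Sema3f* and 78 in *Sema6d*, and no DMR overlapped any of these windows. Introns contained 72 of the 85 DMRs (84.7%), against 74.9% of all loss and 43.8% of all gain DMRs. Without *Sema6a* the share was 70.0%. Exons contained 8, the transcript end region 1 and intergenic sequence 4.

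The number of CpGs in a DMR differed among the genes. All 85 DMRs had 4.60 CpGs on average and 391 in total, compared with a mean of 4.17 in all loss and 3.37 in all gain DMRs. The mean per gene ran from 3.60 in *Sema6d* to 5.50 in *Sema3c*, with 4.89 in *Sema6a*. The smallest number that the DMR model allows, 3 CpGs, was found in 42.4% of them, against 52.5% of all loss DMRs, and the median width was 154 bp against 131 bp. Without *Sema6a* the mean was 4.28 CpGs, 52.5% had 3 CpGs and the median width was 120.5 bp, so the excess over all loss DMRs was mostly that of *Sema6a*. The median GC content was 47.6% in *Sema6a* and 56.1% in the pooled DMRs of the other 4 genes, beside 50.4% in all loss DMRs. The other 4 genes differed, with 45.2% in *Sema3c*, 52.1% in *Sema6d*, 56.1% in *Sema7a* and 58.7% in *Sema3f*. A window of 200 bp with the GC content and CpG ratio of a CpG island overlapped 9 of the DMRs (10.6%), 6 of them in *Sema6a*, against 11.6% of all loss DMRs. Repeats made up most of the length in 5 DMRs (5.88%, against 6.93%).

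Short letter motifs of endothelial transcription factor families were looked for on both strands in the 200 bp centred on each DMR. They were AGGAAG for ETS, TGTTTA for forkhead, ACAATG for SOX, TGANTCA for AP-1, AGATAA for GATA, CACCC for KLF, CAGAC for SMAD and GGAATG for TEAD factors. AGGAAG and GGAATG both contain GGAA, but the same GGAA cannot belong to both, because the next letter differs. In the 81 loss DMRs the SMAD letters were found in 44.4%, the KLF letters in 42.0% and the ETS letters in 24.7%, next to 42.5%, 41.1% and 29.4% of all loss DMRs. The TEAD letters were found in 18.5% (against 11.2%) and the AP-1 letters in 9.88% (6.83%). Without *Sema6a* the TEAD share fell to 13.9% and the AP-1 share rose to 13.9%. Forkhead letters were found in 11.1% (19.2%), GATA in 7.41% (13.8%) and SOX in 4.94% (9.57%). Searched in the DMR itself in place of the window, the members had the SOX letters in 11.1% and the forkhead letters in 7.41%. The SOX share in the window came from 4 of the 81 loss DMRs, so its difference from the share in the DMR rests on few DMRs. The share within the DMR itself was not computed over all loss DMRs, so these values have no background beside them. These are matches of letters, not binding sites, and no test was made. The largest loss of *Sema6d*, printed above, holds the AP-1 letters between its first and second CpG.

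**Figure D4:**
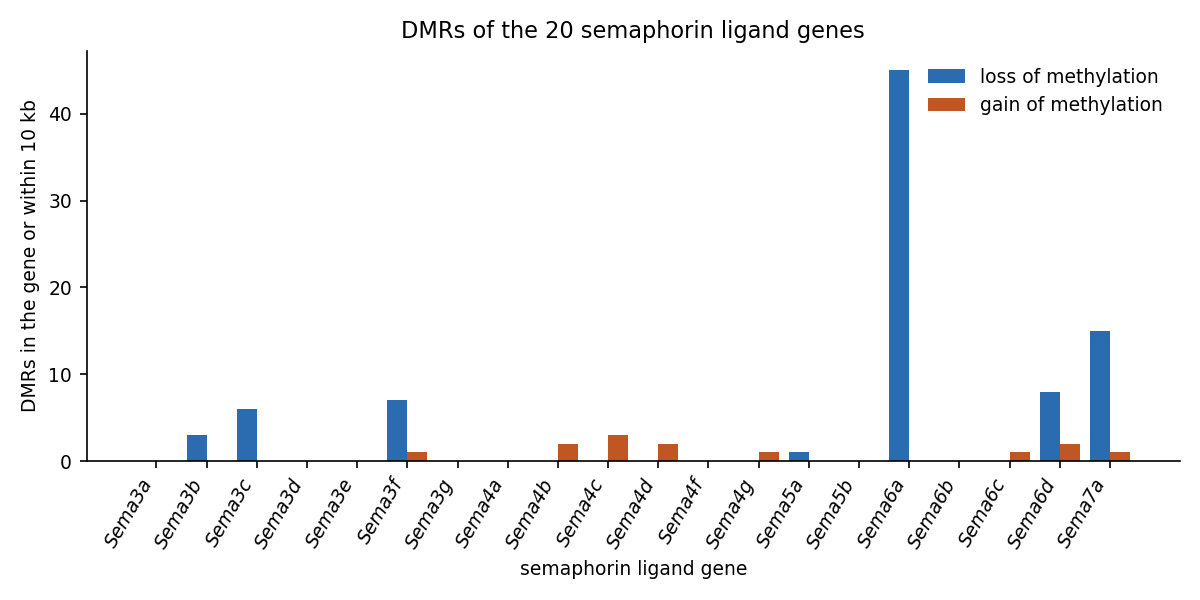
Number of DMRs in the gene body or within 10 kb for the 20 semaphorin ligand genes, with loss of methylation in blue and gain in orange. *Sema6a* reaches 45 loss DMRs, the other 4 genes described here 6 to 15, and no other ligand gene more than 3. The genes described here were picked with these counts known.

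The 15 other semaphorin ligand genes had fewer DMRs than the 5 described here. Those 5 were picked with these counts known, so the contrast follows from the choice and tests nothing. The 15 other genes had 13 DMRs, 4 of which lost (30.8%, beside 45.9% of all DMRs) and 9 of which gained methylation. At 8 of these 15 genes no DMR was listed. Over all 26,089 annotated genes, 6,949 had at least 1 DMR by the same rule. The bodies of the 15 genes together measure 1,497 kb. Loss was found at *Sema3b* (3 DMRs) and *Sema5a* (1 DMR), which encode a secreted and a transmembrane ligand. The *Sema3b* DMR that was classed as promoter (chromosome 9, 107607913 to 107608089) fell from 60.2% to 26.1%, and that of *Sema5a* (chromosome 15, 32497001 to 32497277) from 55.8% to 17.4%. Gain was found at *Sema4c* (3 DMRs), *Sema4b* and *Sema4d* (2 each), *Sema4g* and *Sema6c* (1 each). A *Sema4c* DMR was also classed as promoter (chromosome 1, 36558941 to 36558989), and it rose from 7.92% to 40.1%. All 8 DMRs of the class 4 genes were gains, from 12.2 to 32.1 percentage points. The largest gain of the other ligands was that of *Sema6c*, from 13.1% to 50.6% (chromosome 3, 95162061 to 95162120).

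The receptor side, listed as 9 plexin genes, both neuropilins and the integrin gene *Itgb1*, had 68 DMRs. Of these, 35 were losses (51.5%, beside 45.9% of all listed DMRs). The loss DMRs were at *Plxna1* (14), *Nrp1* (11), *Plxna4* (6), *Plxna2* (2) and *Plxnb2* (2), whereas gain DMRs were at *Plxna4* (15), *Nrp2* (9), *Plxnd1* (6), *Plxnc1* (2) and *Plxnb2* (1). *Plxna1*, *Plxna2* and *Plxna4* encode A-type plexins, *Nrp1* and *Nrp2* the neuropilins. *Plxnc1* encodes the plexin that binds SEMA7A.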

How the data were processed

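The deposited list gives 2 values for each DMR, the infant and the young adult mean methylation, each a fraction from 0 to 1 made by the authors by averaging over samples. Per the methods and the submitters' processing notes, the authors trimmed adaptors with SeqPrep, aligned with BWA (0.6.1) to mm10, removed duplicates with Picard and called DMRs in R (3.2.2) with bsseq on unsmoothed data. A CpG needed 8-fold coverage in 2 samples of each group, and a DMR at least 3 consecutive CpGs with p under 0.05 by t-test and group means 10% apart. The sizes given are therefore those of selected regions.

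Here the fractions were turned into percent, and infant was subtracted from young adult. The first and last listed positions were CpGs of GRCm38 in all 18,333 DMRs, and positions are printed from 1, from the first C to the last G. The gene body was the span of the curated RefSeq transcripts (45,657 transcripts, 26,089 genes). Location followed the order promoter, transcript end, exon, intron, intergenic, by the midpoint. A CpG island window measured 200 bp, with 50% GC or more and an observed to expected CpG ratio over 0.6. Lower-case bases of the reference were taken as repeats. Procedures ran in Python 3.11.15 with pandas 2.3.3 and pysam 0.24.0 and were tested on simulated regions.

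The genes, family lists, motifs and comparisons were chosen with earlier results of these data known. Named were the 5 genes, other ligands with a DMR, the largest loss and gain of a gene and the DMR nearest to a start. *Gnat1*, the receptor genes and further single DMRs were named after their values were seen. The RNA-seq and MassARRAY values were not used here.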

Additional observations from a re-analysis of the deposited data

How the results depend on the processing

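Values per sample were not analysed here, so the permutation test between samples and the settings that leave out a sample were not run. No paired analysis was possible because the list holds 1 mean per age group. Loss DMRs outnumbered gain DMRs over the 5 genes under all 11 settings run for the counts. The genes were picked with these counts known, so this outcome follows from the choice and tests nothing. Requiring at least 5 CpGs left 32 loss DMRs of 81 and 1 gain DMR of 4, and leaving out *Sema6a*, an alternative chosen after seeing the data, left 36 loss DMRs. The 4 gains fell to 1 at a difference of at least 20% and also at 30%. Over the whole list, 61.2% of loss DMRs but 13.0% of gain DMRs reached 30 percentage points. The gains of the 5 genes fell to 2 in the gene body only and rose to 8 within 50 kb. They also rose to 8 when the nearest promoter of the deposited list decided. That promoter rule also left 3 of the 7 loss DMRs of *Sema3f*, the others being given to *Gnat1*. The intronic share moved from 84.7% to 90.9% with at least 5 CpGs and to 70.0% without *Sema6a*. Joining DMRs at gaps of 2 kb instead of 10 kb gave 39 runs in place of 16. With the stricter island, which changed the window to 500 bp, the GC content to 55% and the CpG ratio to 0.65 together, the share at an island fell from 10.6% to 0%. The median levels and difference of the loss DMRs stayed within the quartiles of the 81 DMRs under the 5 settings run for them. The depth behind a DMR is unknown and CpGs outside the list cannot be told from CpGs without coverage.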
